A study of Rattus norvegicus with 8 samples.

Results

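The genes described here are 9 surface or matrix genes by which blood monocytes and macrophages are known: *Ccr2*, *Cx3cr1*, *Csf1r*, *Vcan*, *Cd68*, *Mrc1*, *Cd163*, *Msr1* and *Cd36*. Every probe set whose annotation gives exactly 1 of these symbols was taken, whatever its level. This gave 12 probe sets of 31042 on the array, for 8 of the 9 genes (of 14217 genes with a probe set of their own). *Vcan* has 5 probe sets and each of the other genes has 1. No probe set carries *Msr1* alone, so it has no value here, and 1 probe set that names *Cd36* together with a second gene was left out by the rule.

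Reporter cells were peripheral blood mononuclear cells (PBMCs), that is lymphocytes and monocytes isolated by density centrifugation, of 2 healthy male Brown Norway (BN) rats, BN1 and BN2, about 180 days old. For each culture 500000 cells of 1 rat were kept for 6 h in medium with 20% plasma, and their RNA was hybridized to an Affymetrix array. Normoxic control plasma had been pooled from 8 adult male Sprague-Dawley (SD) rats kept at 21% oxygen as newborns. The 5% IH plasma was a pool of 5 SD males, and the 10% IH plasma a pool of 3, that had breathed 5% or 10% oxygen intermittently (intermittent hypoxia, IH) for 1 h a day on postnatal days 2 to 6. All SD rats were bled as adults, at PD114 (PD, postnatal day), after a fast. Autologous plasma, from the BN rats themselves, was the background condition. Each group therefore held 2 arrays, 1 for each donor of the cells. Each SD plasma was pooled once, so the spread within an SD group is that between 2 reporter rats and not between pools or plasma donors. If each autologous array had plasma of its own rat, the spread of that group also takes in the plasma. The labels of the autologous arrays do not fully fit each other as to which BN rat gave the plasma, and titles were followed here.

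Monocytes leave the bone marrow and enter tissue by way of chemokine receptors, and they depend on growth factor signals through CSF1R. Once in tissue, or activated, they take up particles, lipoproteins and spent proteins through scavenger and lectin receptors, several of which are characteristic of tissue macrophages more than of circulating cells. VCAN (versican), a matrix proteoglycan, is a transcript for which classical monocytes of blood stand out, and CD68 is a glycoprotein of the lysosomes of phagocytes.

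The upstream sequences of *Vcan* and *Cd68* are shown because these genes differed between plasmas in the values below. They are the 250 bases before the annotated start, 5′ to 3′ on the strand of the gene, from RefSeq (build GRCr8). *Vcan* lies at chr2:22595956-22596205 on the minus strand (the more upstream of 2 annotated starts) and *Cd68* at chr10:54882442-54882691 on the minus strand. Capitals mark matches, on either strand, to GAGGAA (the core bound by ETS factors such as PU.1, which reads TTCCTC on the opposite strand), TGANTCA (AP-1), TTGCNNAA (C/EBP) or TTCNNNGAA (STAT).
Vcan: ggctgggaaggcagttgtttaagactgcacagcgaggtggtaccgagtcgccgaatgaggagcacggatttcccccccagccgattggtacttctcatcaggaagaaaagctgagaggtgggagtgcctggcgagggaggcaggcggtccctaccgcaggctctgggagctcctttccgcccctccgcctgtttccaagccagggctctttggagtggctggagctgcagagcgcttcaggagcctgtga
Cd68: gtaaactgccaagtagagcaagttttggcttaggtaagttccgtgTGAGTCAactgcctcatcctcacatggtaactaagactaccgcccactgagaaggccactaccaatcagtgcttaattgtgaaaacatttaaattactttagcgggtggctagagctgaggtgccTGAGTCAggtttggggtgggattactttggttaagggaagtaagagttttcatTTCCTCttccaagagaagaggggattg
The *Cd68* sequence holds 2 AP-1 matches, which begin 205 and 80 bases before the start, and 1 match to the ETS core, 27 bases before it. The printed *Vcan* sequence holds none of the 4 motifs. Among the 8 measured genes, all of which had an entry, the ETS core matched in *Csf1r*, *Cd68*, *Mrc1* and *Cd36* (4 of 8, against 23.3% of 33469 upstream sequences of the same length). AP-1 matched in *Cd68* alone (1 of 8, against 6.34%), C/EBP in *Ccr2* alone (1 of 8, against 9.22%) and STAT in 0 of 8 (against 7.67%). A match is a string of letters and not a measured binding site.

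All values are log2 levels after Robust Multichip Analysis, and a log2 ratio is a difference between the means of 2 groups. Array medians lay between 5.53 and 5.56. The table gives no detection calls, so whether a low level lies above background is not known. By mean level, 5 of the 12 probe sets were under the 40th percentile of the array: those of *Ccr2*, *Mrc1*, *Cd163* and *Cd36* and 1 of *Vcan*. Of the cell types that PBMCs should hold, T cell markers were present at a mean of 9.85 to 10.01 in all 8 arrays. A probe set met the criterion of the study when its Rank Product p (a rank test with permutations) was under 0.05 and its log2 ratio was beyond 0.263 (1.2-fold). Limma, a moderated linear model, served as a second test, with p-values adjusted over all probe sets by Benjamini and Hochberg's method.

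**Figure D1:**
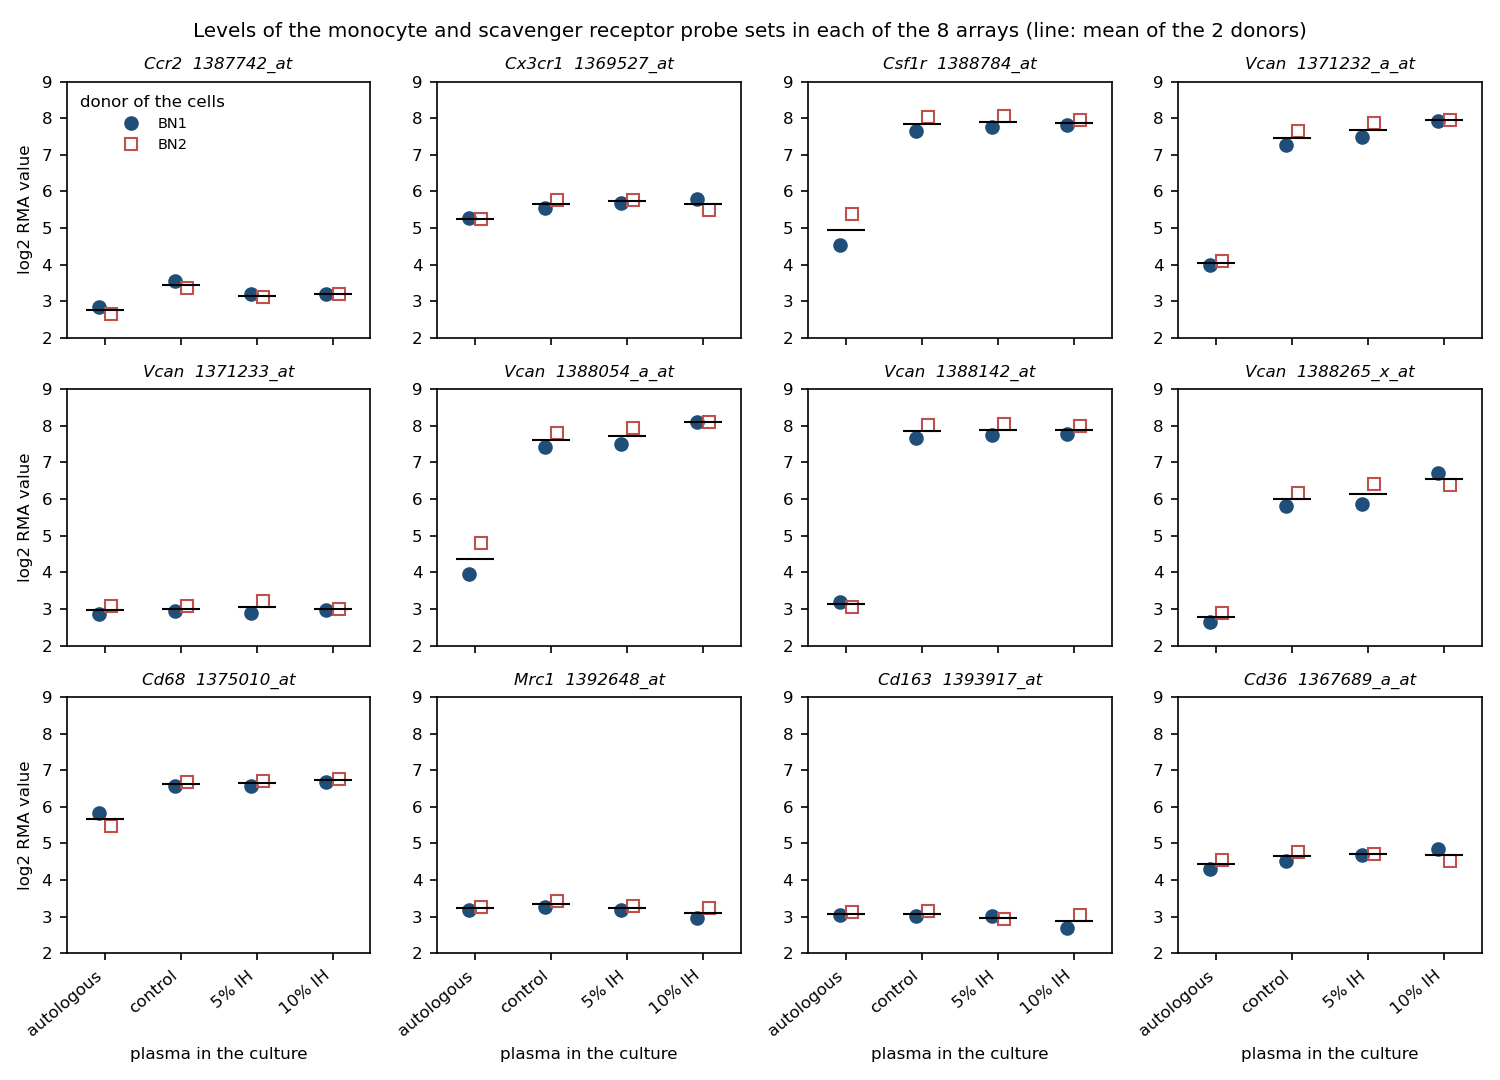
Log2 level of each of the 12 probe sets (vertical axis, log2 RMA value) in cells of BN1 (filled circles) and BN2 (open squares) for each plasma, with a line at the mean of the 2 donors. The *Csf1r* probe set and 4 *Vcan* probe sets sit at 2.65 to 5.37 with autologous plasma and at 5.82 to 8.10 with the SD plasmas, whereas *Mrc1*, *Cd163* and the *Vcan* probe set 1371233_at stay between 2.69 and 3.41 throughout.

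The comparison of normoxic control with autologous plasma sets pooled plasma of another strain against the background condition. The plasmas differ in strain, in age (PD114 against about 180 days), in pooling and in being foreign or the rats' own, and the sources used here state a fast for the SD rats alone, so these factors cannot be told apart. *Csf1r*, *Vcan*, *Cd68* and *Ccr2* were higher with control plasma by both tests, and *Cx3cr1* was higher by the criterion alone. *Mrc1*, *Cd163* and *Cd36* passed neither test. In RNA from mixed cells, fewer cells of a type and less RNA per cell cannot be told apart, and this holds for every result below.

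*Csf1r*, the receptor for CSF1 and IL-34, was at 7.63 (BN1) and 8.04 (BN2) with control plasma and at 4.53 and 5.37 with autologous plasma. Both control arrays were thus far above both autologous arrays. The log2 ratio was 2.89 (7.39-fold, SE 0.25, limma adjusted p = 0.000414), with 3.10 in cells of BN1 and 2.67 in cells of BN2. Only 23 of the 14217 genes had a larger ratio.

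*Vcan* gave the largest ratios of the set, and 4 of its 5 probe sets moved together. Probe set 1388142_at was at 7.67 and 8.03 with control plasma and at 3.19 and 3.06 with autologous plasma, a log2 ratio of 4.72 (26.4-fold, SE 0.15, adjusted p = 4.11e-06). The brightest probe set, 1388054_a_at, was at 7.41 and 7.81 against 3.95 and 4.79, a log2 ratio of 3.24 (9.46-fold, SE 0.26, adjusted p = 0.00023). Within both of these probe sets the autologous arrays stood well apart from the control arrays in both donors. With no detection calls it is not known whether the autologous arrays lie above background for *Vcan*, and for *Ccr2* below. If they do not, the folds of these *Vcan* probe sets are lower bounds. For *Ccr2* the control arrays are low as well and may not lie above background either, so its fold cannot be read in this way. Probe sets 1371232_a_at and 1388265_x_at had log2 ratios of 3.43 (adjusted p = 1.21e-05) and 3.22 (adjusted p = 5.08e-05). The suffix _a marks probes that match several transcripts of a gene, and _x marks probes of which some can match other genes. The fifth probe set, 1371233_at, behaved otherwise: it was at 2.95 and 3.07 with control plasma and at 2.85 and 3.08 with autologous plasma. Its groups overlapped, and its log2 ratio was 0.04 (95% CI -0.25 to 0.34, adjusted p = 0.966). By the brightest probe set, *Vcan* ranked 16 of 14217 genes from the highest ratio.

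*Cd68* was at 6.56 and 6.67 with control plasma and at 5.84 and 5.47 with autologous plasma. The groups did not overlap, and the log2 ratio was 0.96 (1.94-fold, SE 0.13, adjusted p = 0.00584).

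*Ccr2*, the receptor for CCL2 that draws classical monocytes to inflamed tissue, was at 3.54 and 3.35 with control plasma and at 2.85 and 2.64 with autologous plasma. The log2 ratio was 0.70 (1.63-fold, SE 0.11, adjusted p = 0.0106), almost the same in the cells of BN1 (0.70) and BN2 (0.71), although the level was low throughout. *Cx3cr1*, the fractalkine receptor of patrolling monocytes and also of natural killer cells, was at 5.56 and 5.76 against 5.26 and 5.25. Its groups did not overlap either, and its log2 ratio of 0.41 (1.33-fold, SE 0.12) met the criterion but not limma (adjusted p = 0.227). Without the control array of BN2 the ratio was 0.30 and the criterion was no longer met.

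Among the scavenger and lectin receptors, *Cd36*, which takes up fatty acids and oxidized lipoprotein and is carried by platelets as well, was at 4.53 and 4.77 with control plasma and at 4.31 and 4.55 with autologous plasma. The lower control array lay just under the higher autologous array, and the log2 ratio of 0.22 (95% CI -0.10 to 0.54) passed neither test. Without the autologous array of BN2 it was 0.34 and met the criterion. *Mrc1*, the macrophage mannose receptor, was at 3.25 and 3.41 against 3.19 and 3.27, and *Cd163*, the receptor for haptoglobin-haemoglobin complexes, was at 3.02 and 3.15 against 3.04 and 3.12. The arrays of both plasmas were intermixed for these genes, with log2 ratios of 0.11 (95% CI -0.16 to 0.37) and 0.01 (95% CI -0.28 to 0.29). For *Mrc1*, *Cd163* and *Cd36* these intervals lie within 1.5-fold, or 0.58 on the log2 scale.

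By the criterion, 8 of the 12 probe sets were higher with control than with autologous plasma and 0 were lower. Over the whole array 10.5% of probe sets met it, 5.33% as higher. By limma 7 of 12 were higher and 0 lower, where 1.78% of all probe sets passed, 1.48% as higher. The 2 arrays of one plasma did not overlap those of the other for 8 of the 12 probe sets, against 39.1% of all probe sets. The median log2 ratio was 0.83 over the 12 probe sets and -0.01 over all probe sets. *Vcan* holds 5 of the 12, and with 1 probe set per gene, the brightest, the median over the 8 measured genes was 0.55.

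**Figure D2:**
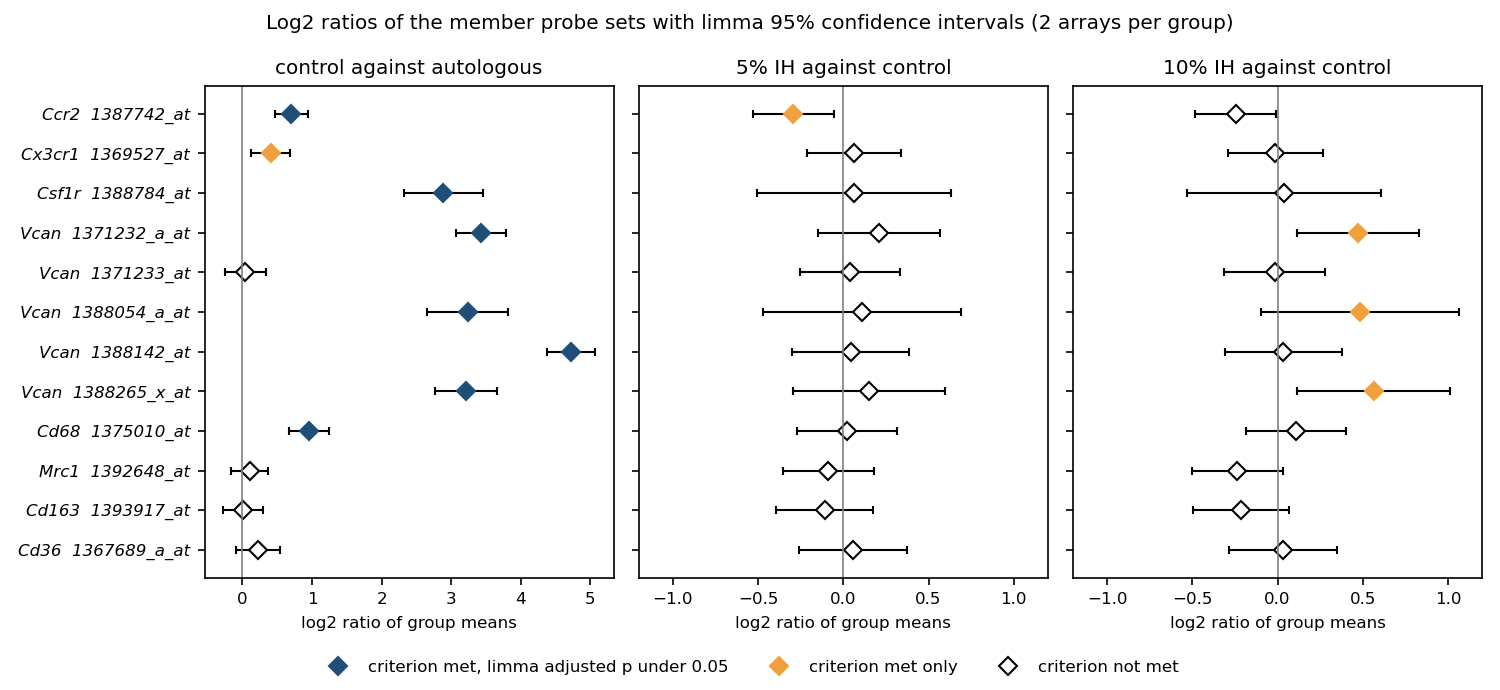
Log2 ratio of each probe set (horizontal axis) with limma's 95% confidence interval for 3 comparisons. The left panel has a wider axis than the others, and filled symbols met the criterion (dark: limma adjusted p under 0.05 as well). Control against autologous plasma reaches 4.72, whereas the ratios of IH plasma to control lie between -0.29 and 0.56.

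Most other genes of monocytes and macrophages were higher as well. Of 30 measured identity genes of a list of 36, 20 met the criterion as higher with control plasma, 16 also by limma, and 0 as lower, with a median log2 ratio of 0.79 against -0.01 over all genes. *Cd14*, the endotoxin co-receptor, was at 9.90 on average with control and 4.63 with autologous plasma (log2 ratio 5.28, SE 0.13), and *Clec4a3* (3.87), *Mpeg1* (3.57) and *Fcgr1a* (3.24) followed. Averaged over the 30 genes, the level was 6.36 and 6.58 in the 2 autologous arrays and 7.63 to 7.91 in the 6 arrays with SD plasma. The count was 19 or 21 of 30 without one of the autologous arrays. Genes of the list that did not pass include *Ctss* (0.17) and *Irf8* (-0.21).

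Values for markers of the other cells of blood are set beside this. The mean level of 13 T cell markers was 9.85 to 10.01 with SD plasma and 9.85 and 10.00 with autologous plasma, and of these 1 met the criterion as higher and 1 as lower. For 9 B cell markers the counts were 3 and 1 (mean level 8.55 to 8.85 with SD plasma, 8.36 and 8.64 with autologous plasma), for 11 NK cell markers 0 and 3 (7.24 to 7.35, against 7.38 and 7.46), and for 11 platelet markers 0 and 2 (8.83 to 9.06, against 9.11 and 9.13). For 9 neutrophil markers the counts were 4 and 0 (4.51 to 4.75, against 4.23 and 4.53), for 6 dendritic cell markers 2 and 0 (6.05 to 6.19, against 5.84 and 5.97), for 5 erythroid markers 0 and 1 (8.67 to 8.82, against 8.78 and 8.90) and for 8 mast cell and basophil markers 1 and 0 (4.72 to 4.85, against 4.73 and 4.75). The lists are not fully separate: *S100a8*, *S100a9* and *Csf3r* are named in both the neutrophil and the monocyte list. *Itgax* is named in both the dendritic cell and the monocyte list. The median log2 ratios of these 8 lists of other cells lay between -0.18 and 0.24, and their part in the results was not tested.

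The partners of the receptors were less uniform. Of 5 measured ligands of these receptors (of 7), *Ccl2*, the ligand of CCR2, met the criterion (log2 ratio 2.08, adjusted p = 0.001), and the other 4 did not. Of 14 other chemokine receptors (of 20), *Ccr1* (3.09) and *Ccrl2* (0.35) were higher and *Ackr3* (-0.49) was lower by the criterion. Of 16 genes of CSF1R signalling and myeloid growth factors (of 17), 3 met it, all higher: *Tyrobp* (0.95), *Ptpn6* (0.51) and *Socs1* (0.46, not by limma). Beside these counts, 10.5% of all probe sets met the criterion in this comparison, 5.33% as higher.

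Among the neighbours in function of the scavenger receptors and of versican, only the list of hyaluronan matrix held a gene called lower. Over the whole array 5.33% of probe sets met the criterion as higher in this comparison. Of 19 other scavenger and clearance receptors (of 25), 5 were higher and 0 lower, led by *Cxcl16*, a chemokine that also binds oxidized lipoprotein (2.71), *Clec7a*, the beta-glucan receptor dectin-1 (2.38), *Lrp1* (1.08) and *Olr1* (0.67). Of 16 genes that handle fatty acids and sterols with *Cd36* (of 17), 8 were higher, among them *Abca1*, the cholesterol exporter (2.71), *Plin2*, a lipid droplet coat protein (2.39), and *Fabp5* (1.80). Of 9 genes that handle haemoglobin and haem with *Cd163* (of 11), *Hmox1*, haem oxygenase 1 (1.51), and *Lrp1* were higher and the others did not pass. Of 15 genes of hyaluronan matrix and its receptors (of 17), *Tlr2* (0.86) and *Cd44* (0.29) were higher and *Adamts9*, a protease that cleaves versican, was lower (-0.35), of which *Tlr2* alone passed limma.

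**Figure D3:**
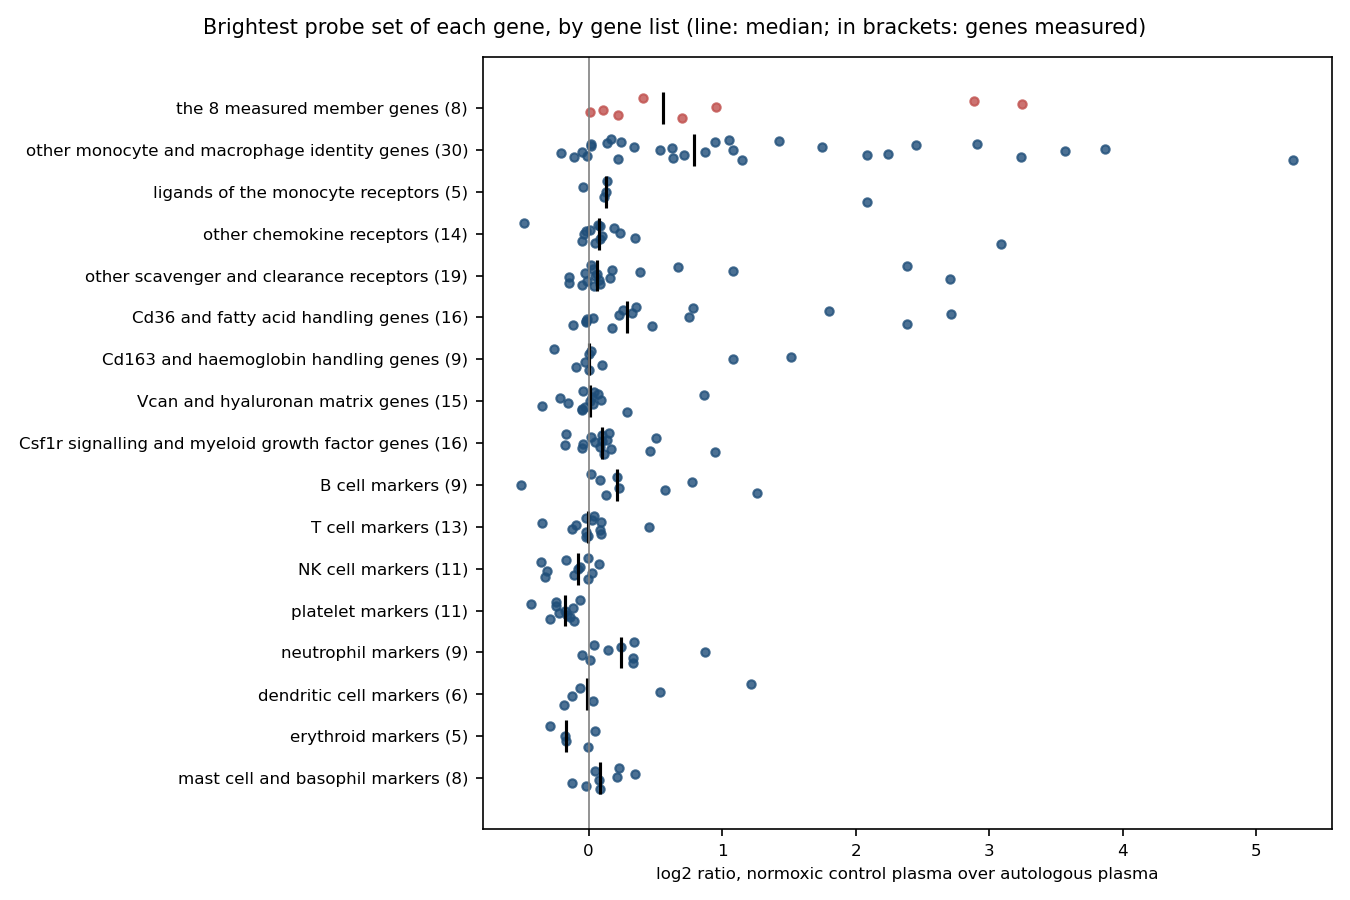
Log2 ratio of control over autologous plasma (horizontal axis) for each gene of the 16 lists and for the 8 measured genes described here (top row, red), each by its brightest probe set, with a line at the median of each row. The other monocyte and macrophage genes reach 5.28 (*Cd14*) with a median of 0.79, whereas the medians of the T, NK, platelet, dendritic and erythroid rows lie between -0.18 and -0.01 and those of the B cell, neutrophil and mast cell rows at 0.21, 0.24 and 0.08.

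Plasma of SD rats exposed to IH, set against autologous plasma, gave its largest ratios for *Vcan* and *Csf1r* again. These comparisons share the 2 autologous arrays with the one above and are not independent of it. With 5% IH plasma, 9 of 12 probe sets were higher by the criterion and 0 lower (10.7% of all probe sets met it, 5.4% as higher), and 6 were higher by limma (1.96% of all, 1.71% as higher). With 10% IH plasma, 8 were higher and 0 lower by the criterion (10.3% of all, 5.13% as higher), and 6 were higher by limma (1.25% of all, 1.2% as higher). The 6 were *Csf1r*, *Cd68* and the same 4 *Vcan* probe sets each time.

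In these comparisons *Csf1r* had log2 ratios of 2.95 for 5% IH and 2.92 for 10% IH, beside 2.89 for control plasma. *Vcan* 1388142_at had 4.77 and 4.76, beside 4.72, and *Cd68* had 0.98 and 1.07, beside 0.96. *Ccr2* had lower ratios, 0.41 and 0.46 beside 0.70, which met the criterion but not limma (adjusted p = 0.125 and 0.113). The ratios of *Cx3cr1* were 0.47 and 0.39, again by the criterion alone (adjusted p = 0.13 and 0.293). *Cd36* met the criterion with 5% IH plasma, at 0.27 just past the limit (adjusted p = 0.575), and lost it when any of 3 single arrays was left out. *Ccr2* lost it for 5% IH plasma without the autologous array of BN2 (0.31), and *Cx3cr1* lost it for 10% IH plasma without the 10% IH array of BN1 (0.24). *Mrc1* (0.02 and -0.13) and *Cd163* (-0.10 and -0.21) passed neither test, although *Cd163* met the criterion as lower with 10% IH plasma without the 10% IH array of BN2 (-0.39).

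The comparison of each IH plasma with normoxic control plasma asks what neonatal hypoxia left in adult plasma. With 5% IH plasma 1 of 12 probe sets, that of *Ccr2*, met the criterion, against 3.1% of all probe sets, and limma called 0 of 12 and 0% of all probe sets. At an unadjusted limma p under 0.05 there were 1 of 12 and 790 of 31042 probe sets. With 10% IH plasma 3 of 12 met the criterion, all of them *Vcan* probe sets and higher, against 6.95% of all probe sets. Limma again called 0 of 12 and 0% of all, with 3 of 12 and 1612 of 31042 at an unadjusted p under 0.05. The 3 by unadjusted p were *Ccr2*, which was lower, and the *Vcan* probe sets 1371232_a_at and 1388265_x_at. The brightest *Vcan* probe set was not among them. Both comparisons share the control arrays.

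*Ccr2* was at 3.18 and 3.13 with 5% IH plasma and at 3.20 and 3.20 with 10% IH plasma, beside 3.54 and 3.35 with control plasma. The 2 arrays of 5% IH plasma did not overlap those of control for 26.3% of all probe sets, and those of autologous plasma for 39.4%. With 10% IH plasma the shares were 33.9% and 36.6%. For *Ccr2* all 4 IH arrays were below both control arrays and above both autologous arrays. The log2 ratio to control was -0.29 for 5% IH (SE 0.11, adjusted p = 1), with -0.36 in cells of BN1 and -0.23 in cells of BN2, and -0.25 for 10% IH (adjusted p = 0.92), which did not meet the criterion. Without the control array of BN1 the 5% IH ratio was -0.20 and the criterion was no longer met. Without the control array of BN2 the 10% IH ratio was -0.34 and met it. Its ligand gene *Ccl2* had -0.44 with 5% IH plasma and met the criterion (adjusted p = 1).

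*Vcan* was at 8.10 in both donors with 10% IH plasma by its brightest probe set, beside 7.50 and 7.94 with 5% IH and 7.41 and 7.81 with control plasma. The 2 arrays of 10% IH plasma did not overlap those of control for 33.9% of all probe sets, and those of 5% IH for 32.4%. Both 10% IH arrays were above all other arrays of the brightest *Vcan* probe set. The log2 ratio of 10% IH to control was 0.48 for it (1.40-fold, SE 0.26, 95% CI -0.10 to 1.07, limma adjusted p = 0.92). It was 0.47 for 1371232_a_at and 0.56 for 1388265_x_at. In all 3 the ratio was larger in cells of BN1 (0.65 to 0.90) than in cells of BN2 (0.23 to 0.29). Without the control array of BN1 the ratio was 0.29 for both 1388054_a_at and 1371232_a_at and 0.39 for 1388265_x_at, and all 3 still met the criterion. Probe set 1388142_at, which had the largest difference between control and autologous plasma, was at 7.77 and 7.99 with 10% IH and at 7.67 and 8.03 with control plasma. Its arrays were intermixed, with a log2 ratio of 0.03 (95% CI -0.31 to 0.38), so the probe sets of *Vcan* differ among themselves here. By the brightest probe set *Vcan* ranked 20 of 14217 genes from the highest ratio. With 5% IH plasma the 5 ratios were 0.04 to 0.21 and none met the criterion, but 3 did without the control array of BN2 (0.31 to 0.40) and 3 without the 5% IH array of BN1 (0.33 to 0.42).

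*Csf1r* was at 7.74 and 8.05 with 5% IH plasma and at 7.80 and 7.94 with 10% IH plasma, close to the 7.63 and 8.04 of control plasma. Its ratios to control were 0.06 (95% CI -0.51 to 0.63) and 0.04 (95% CI -0.53 to 0.61), and the 5% IH ratio reached 0.26 and the criterion without the control array of BN2. *Cd68* was at 6.56 and 6.72 with 5% IH and 6.69 and 6.76 with 10% IH plasma, with ratios of 0.02 (95% CI -0.27 to 0.32) and 0.11 (95% CI -0.18 to 0.40). Neither passed a test. The intervals of *Csf1r* reach past 1.5-fold (0.58) and those of *Cd68* past 1.2-fold (0.263), so changes of that size are within the error.

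*Cx3cr1* was at 5.67 and 5.77 with 5% IH plasma and at 5.80 and 5.49 with 10% IH plasma. The donors went opposite ways with 10% IH plasma, by 0.24 in cells of BN1 and -0.27 in cells of BN2, and the ratio of the means was -0.01. *Cd36*, at 4.69 and 4.72 and then 4.85 and 4.51, did the same (0.32 and -0.26, mean 0.03). *Mrc1* was at 3.18 and 3.31 with 5% IH and at 2.95 and 3.24 with 10% IH plasma, and *Cd163* at 3.01 and 2.94 and at 2.69 and 3.05. Their ratios of 10% IH to control, -0.24 and -0.21, were negative in both donors and below the limit of the criterion. Without the 10% IH array of BN2 they were -0.38 and -0.40 and met it, as did *Mrc1* without the control array of BN1 (-0.32).

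**Figure D4:**
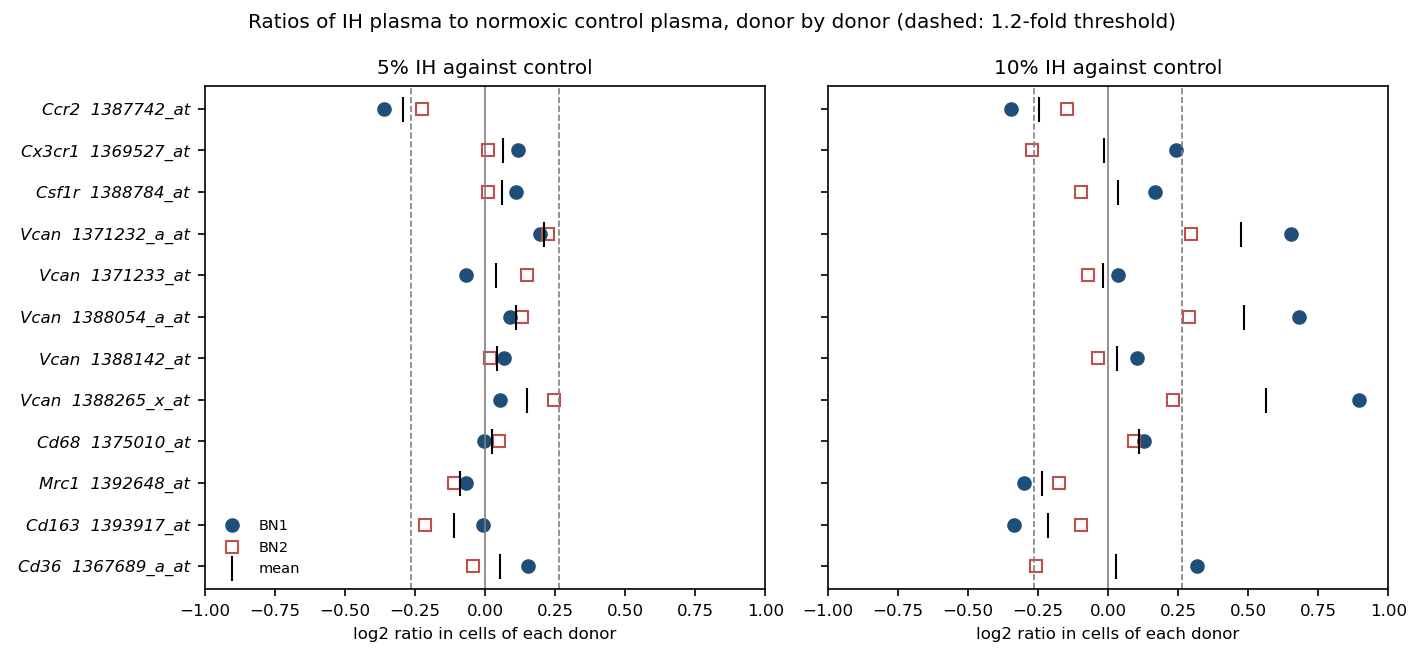
Log2 ratio of 5% IH (left) and 10% IH (right) plasma to control plasma in cells of BN1 (filled circles) and BN2 (open squares), where ticks give the mean and the dashed lines mark 1.2-fold. With 10% IH plasma 3 *Vcan* probe sets lie to the right in both donors, from 0.23 to 0.90, and *Cx3cr1* and *Cd36* have donors on opposite sides of 0.

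Of the wider monocyte list, 7 of 30 genes met the criterion as higher with 5% IH plasma and 0 as lower, with a median log2 ratio of 0.12 against -0.000905 over all genes. The largest were *Adgre1* (0.54), *Cd14* (0.40), *Clec4a3* (0.36) and *Cebpb* (0.29). With 10% IH plasma only *Cebpb* (0.33) met it, and the median was 0.01. Of the 19 other scavenger receptors, *Cxcl16* (0.52), *Stab1* (0.33) and *Olr1* (0.30) were higher and *Scara5* (-0.35) was lower with 5% IH plasma, and *Stab1* (0.27) was higher with 10% IH plasma. *Cx3cl1*, the fractalkine gene, was higher with 5% IH plasma (0.27). Over the whole array of 31042 probe sets, 492 were higher and 471 lower by the criterion with 5% IH plasma. With 10% IH plasma 1111 were higher and 1045 lower. Limma called 0 genes of any list in either comparison.

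Set against each other, 5% IH and 10% IH plasma differed by the criterion in 2 of 12 probe sets, both of *Vcan* and both lower with 5% IH (6.33% of all probe sets met it). The log2 ratios were -0.37 for 1388054_a_at and -0.41 for 1388265_x_at, the latter resting on cells of BN1 (-0.84, beside 0.01 in cells of BN2). Limma called 0 of 12 and 0% of all probe sets, and at an unadjusted p under 0.05 there were 0 of 12 and 1452 of 31042. Without the 5% IH array of BN1 both ratios were -0.15 and neither met the criterion. Without the 10% IH array of BN1 that of 1388265_x_at was -0.25 and it was no longer met. Averaged over its probe sets, *Vcan* had a ratio of -0.20 and did not meet it. In order of mean level, *Vcan* by its brightest probe set ran from autologous over control and 5% IH to 10% IH plasma. The step from autologous plasma exceeded the spread between donors, and the step between control and 5% IH did not. The ratio of 5% to 10% IH, -0.37 (95% CI -0.96 to 0.21), met the criterion but not limma. It was smaller in size than the gap between the 2 arrays of 5% IH plasma (7.50 and 7.94), so this step did not exceed the spread between donors either. Probe set 1388142_at did not give this order, with means of 7.89 for 5% IH and 7.88 for 10% IH plasma and a ratio of 0.01 (95% CI -0.33 to 0.35). For *Csf1r* and *Cd68* the 3 SD plasmas could not be put in an order beyond their spread. Of the 30 other monocyte genes, 6 met the criterion as higher with 5% IH than with 10% IH plasma and 0 as lower. Their median log2 ratio was 0.03. Of the 19 other scavenger receptors 3 were higher and 0 lower, and of the 16 CSF1R signalling genes 0 were higher and 1 lower. Over the whole array 1017 probe sets were higher and 949 lower, and limma called 0 genes of these lists.

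The genes most like each receptor over the 8 arrays were sought among the genes whose range was at least 1 on the log2 scale (325 or 326 genes). The closest to *Csf1r* were *Gpnmb*, *Ccr1* and *Cd300c2* (Pearson r 0.9989 to 0.9991), to *Vcan* they were *Plaur*, *Lyz2* and *Cd300c2* (0.9943 to 0.9969), and to *Cd68* they were *Capg*, *Slamf9* and *Hip1* (0.9898 to 0.9916). For *Cx3cr1* these were *Tnfrsf21*, *Socs2* and *Lmna* (0.9331 to 0.9537), for *Ccr2* they were *Bdh2*, *Ubd* and *Ccl2* (0.9116 to 0.9168), and for *Cd36* they were *Socs2*, *Sgpl1* and *Asl* (0.8434 to 0.9321). *Mrc1* and *Cd163* were nearest to *Wdr33* (0.8066 and 0.8807). The 8 points come from 2 rats, and for *Csf1r*, *Vcan* and *Cd68* the 2 autologous arrays lie far from the other 6, so these values describe mainly that split.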

How the data were processed

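Transcript levels were measured in PBMCs of 2 BN rats cultured with 4 plasmas, on 8 arrays. The authors deposited log2 values, quantified in Expression Console. Robust Multichip Analysis subtracts background, equalizes array distributions by quantiles and sums up the probes of a set, which can compress the ratios of dim probe sets. Partek stands in the submitters' processing notes without a version. The 31042 probe sets had 0 missing values, from 1.66 to 14.3, and were not scaled again. Probe sets were named from the platform annotation (20826 with 1 symbol, 436 with several, 9780 with none). A gene is represented by its probe set with the highest mean, unless a probe set is named. The number of arrays limits the precision.

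Groups came from the titles. The members and the 16 gene lists (232 genes, 184 measured) were chosen with earlier results of these data known. All probe sets of the members were named, and from each list up to 4 genes with the largest ratios that met the criterion, with further ones where a count is small. The Rank Product was written in R 4.3.3, since the package of the study was not at hand, with all between-array ratios of a comparison, 100 permutations of values within arrays and a 1-sided p in each direction. Limma 3.58.1 used all 8 arrays in 4 groups, with adjustment over 31042 probe sets. Both steps were tested on simulated data. Limma's p-values measure only the spread between cultures of 2 rats. The Rank Product p measures how extreme the ranks of a probe set are among all probe sets of the same arrays.

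Replicate numbers stand for the donor rat in the titles and so pair the arrays. Differences between donors correlated over probe sets at 0.24 between control and 5% IH, 0.059 between control and 10% IH, 0.165 between 5% and 10% IH, and -0.171 to -0.00387 with the autologous arrays. Alternatives were a 1.5-fold limit, the fold limit alone, a 2-sided p, within-donor ratios, a filter on the dimmest 40% of probe sets, further normalization, averages over the probe sets of each gene, donor as a replicate block, the compared groups alone, an intensity trend and each array left out. Upstream sequences came from RefSeq, with GRCr8 coordinates.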

Additional observations from a re-analysis of the deposited data

How the results depend on the processing

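The counts of members higher with control, 5% IH or 10% IH than with autologous plasma stayed within 1.5 times of 8, 9 and 8 (criterion) and 7, 6 and 6 (limma) under every alternative run. Leaving out each array in turn gave 7 to 9, 8 to 8 and 7 to 10 calls in either direction by the criterion. By limma it gave 6 to 7, 5 to 6 and 6 to 6. The 10, without the 10% IH array of BN2, include *Cd163* called as lower (-0.39). In the paired fit, with donor as a replicate block, limma called 7, 6 and 6, and 0 in the comparisons among SD plasmas, and no member changed its call.

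The criterion counts among SD plasmas were small and depended on the settings. For 5% IH against control the count of 1 became 0 with a 1.5-fold limit and 0 without the dimmest 40% of probe sets, and it ran from 0 to 5 over the arrays left out (5 without the control array of BN2, 4 without the 5% IH array of BN1, 0 without the control array of BN1). For 10% IH against control the count of 3 became 0 with the 1.5-fold limit and ran from 3 to 5 over the arrays left out (5 without the 10% IH array of BN2). For 5% IH against 10% IH the count of 2 became 0 with the 1.5-fold limit and ran from 0 to 3 over the arrays left out (0 without the 5% IH array of BN1). The cause was not tested. The counts of other monocyte genes ran from 19 to 21 (control), 20 to 22 (5% IH) and 19 to 22 (10% IH) against autologous plasma without an autologous array, an alternative chosen after seeing the data.

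Of 192 ratios of single genes under other settings than leaving out an array, 190 kept their direction and call, 1 lost its call (*Vcan*, 5% against 10% IH, by the mean of its probe sets) and 1 not called changed sign (*Cd163*, by median centring). With an array left out 149 kept them, 24 not called changed sign, 11 gained a call and 8 lost one. No called ratio turned its sign. The 2 arrays per group limit what can be told apart, and for dim probe sets the table gives no signal over background.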
